A study of Arabidopsis thaliana with 4 samples.

Results

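Transcript levels were compared between systemic leaves of Arabidopsis thaliana plants whose local leaves had been given Dox and systemic leaves of plants whose local leaves had been given water. The comparison rests on the 3 count columns of the Dox systemic sample and the 3 of the control systemic sample, which are 2 of the 4 samples and 6 of the 12 libraries of the series. In the Dox plants the local tissue received 25 um/g Dox, a name the labels do not spell out. The systemic leaves of both sets of plants have NA as their own treatment, and no mutant line or transgene is named for either set. All plants were raised on agar medium with 1% sucrose at 22 °C under 16 h of light and 8 h of darkness, and the sources used here give neither the age of the plants nor the hour of harvest or the delay after treatment. Counts were available for 32982 genes, of which 19403 had enough reads to be tested. The series title places the question: what changes in leaves distant from a tissue under mitochondrial stress.

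Mitochondria that cannot respire normally signal to the nucleus, which responds in plants by switching on genes for alternative respiration, detoxification and transport; membrane-bound NAC factors of the ANAC017 group are central to that route. Leaves are also joined by the vasculature and exchange sugars, hormones and reactive oxygen signals, so that a stressed leaf can alter leaves that were not treated. Photosynthesis genes, growth hormones, the circadian clock and immune genes are known outputs of such long-distance signals.

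The 6 systemic libraries held 18981328 to 21204616 counts and 21524 to 22325 detected genes each. Spearman correlations ran from 0.971 to 0.976 among Dox systemic libraries, from 0.953 to 0.966 among control systemic libraries and from 0.936 to 0.975 between the groups. Control systemic library 3 stood apart on the first principal component, at 37.9, where the other 5 lay between -65.2 and -23.3. Whether the 3 columns of a sample are separate plants is not stated, and the p-values therefore reflect library-to-library spread, which may be technical. All 5 leaf mesophyll markers were expressed, with RBCS1A, a Rubisco small subunit, at 7689 to 10770 CPM (counts scaled to library size) in Dox systemic and 11170 to 11590 CPM in control systemic leaves. Of 11 root markers 9 had too few reads to be tested, 6 of them with 0 reads in all 6 libraries and none with more than 9 in any. The 5 shoot apex markers had at most 7 reads each in any library.

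Across the whole comparison, edgeR's quasi-likelihood test left 0 of 19403 genes (0%) under an adjusted p of 0.05, and the smallest adjusted p was 0.451. Without adjustment, 1670 genes (8.61%) had p under 0.05, of which 740 were higher (3.81%) and 930 lower (4.79%) in Dox systemic leaves. A positive log2 fold change was found for 9682 genes (49.9%). The 3 Dox libraries lay above all 3 control libraries for 1544 genes (7.96%) and below them for 1632 (8.41%). When libraries were scaled by total counts only, the all-gene median became 0.113 and the balance turned round, to 969 higher and 588 lower at p under 0.05 and 2297 higher and 970 lower without overlap. DESeq2 called 59 genes higher (0.279%) and 62 lower (0.293%) of 21125 with an adjusted p. Those percentages are the background for every count of list members given hereafter, and log2 fold changes are edgeR's, Dox systemic over control systemic, with their standard error (SE).

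CRK4, a cysteine-rich receptor-like kinase, had the smallest p-value of all genes tested, with 83.4, 95.9 and 80.3 CPM in Dox systemic leaves, against 168, 159 and 186 CPM in control systemic leaves (log2 fold change -0.98, SE 0.17; DESeq2 adjusted p = 2.93e-05). Every Dox library was below every control library, and its value stayed between -1.06 and -0.91 whichever library was left out. In local leaves the same gene had 245, 258 and 320 CPM with Dox and 229, 215 and 263 CPM with water, groups that overlap, and the systemic minus local difference was -1.2 (SE 0.23; adjusted p = 0.832 by edgeR). RLP34, a receptor-like protein of the leucine-rich repeat kind, stood at 20.3, 32.5 and 20.5 CPM with Dox, against 93.8, 59.5 and 52.5 CPM in controls (-1.49, SE 0.27). EXL3, an EXORDIUM-like protein, had 45.7, 64.1 and 60.8 CPM in Dox systemic and 205, 225 and 300 CPM in control systemic leaves (-2.10, SE 0.46). The groups do not overlap for either gene, and the control libraries of RLP34 span a wider range than the gap between its groups. AT5G61590, annotated only as an integrase-type DNA-binding protein, was lower as well, at 62.9, 112 and 60.03 CPM with Dox against 366, 293 and 149 CPM in controls (-1.78, SE 0.37). DESeq2 called all 4 of these genes.

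On the higher side, UNE10, a basic helix-loop-helix factor of the phytochrome-interacting family, stood at 61.9, 28.9 and 56.3 CPM in Dox systemic leaves, against 16.5, 14.2 and 15.6 CPM in control systemic leaves (1.67, SE 0.31). AT5G66310, annotated as a microtubule motor protein, had 42.6, 27.8 and 32.8 CPM with Dox and 12.4, 13.9 and 16.6 CPM in controls (1.27, SE 0.23). PDCB5, a callose-binding protein of plasmodesmata, the channels between plant cells, stood at 10.5, 7.43 and 9.90 CPM with Dox against 4.95, 4.05 and 5.07 CPM in controls (0.98, SE 0.20). Control libraries of these genes were close to each other, and the Dox libraries varied more. SWEET1, a sugar transporter, was at 5.81, 3.97 and 7.25 CPM in Dox systemic and 2.08, 1.48 and 1.603 CPM in control systemic leaves (1.72, SE 0.37). LPD1, a plastid lipoamide dehydrogenase, and ALDH3F1, an aldehyde dehydrogenase, stood at 1.08 (SE 0.24) for LPD1 and 0.91 (SE 0.18) for ALDH3F1, again with no overlap. DESeq2 called all 6 genes of this paragraph, with adjusted p from 0.00164 to 0.0216.

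**Figure D1:**
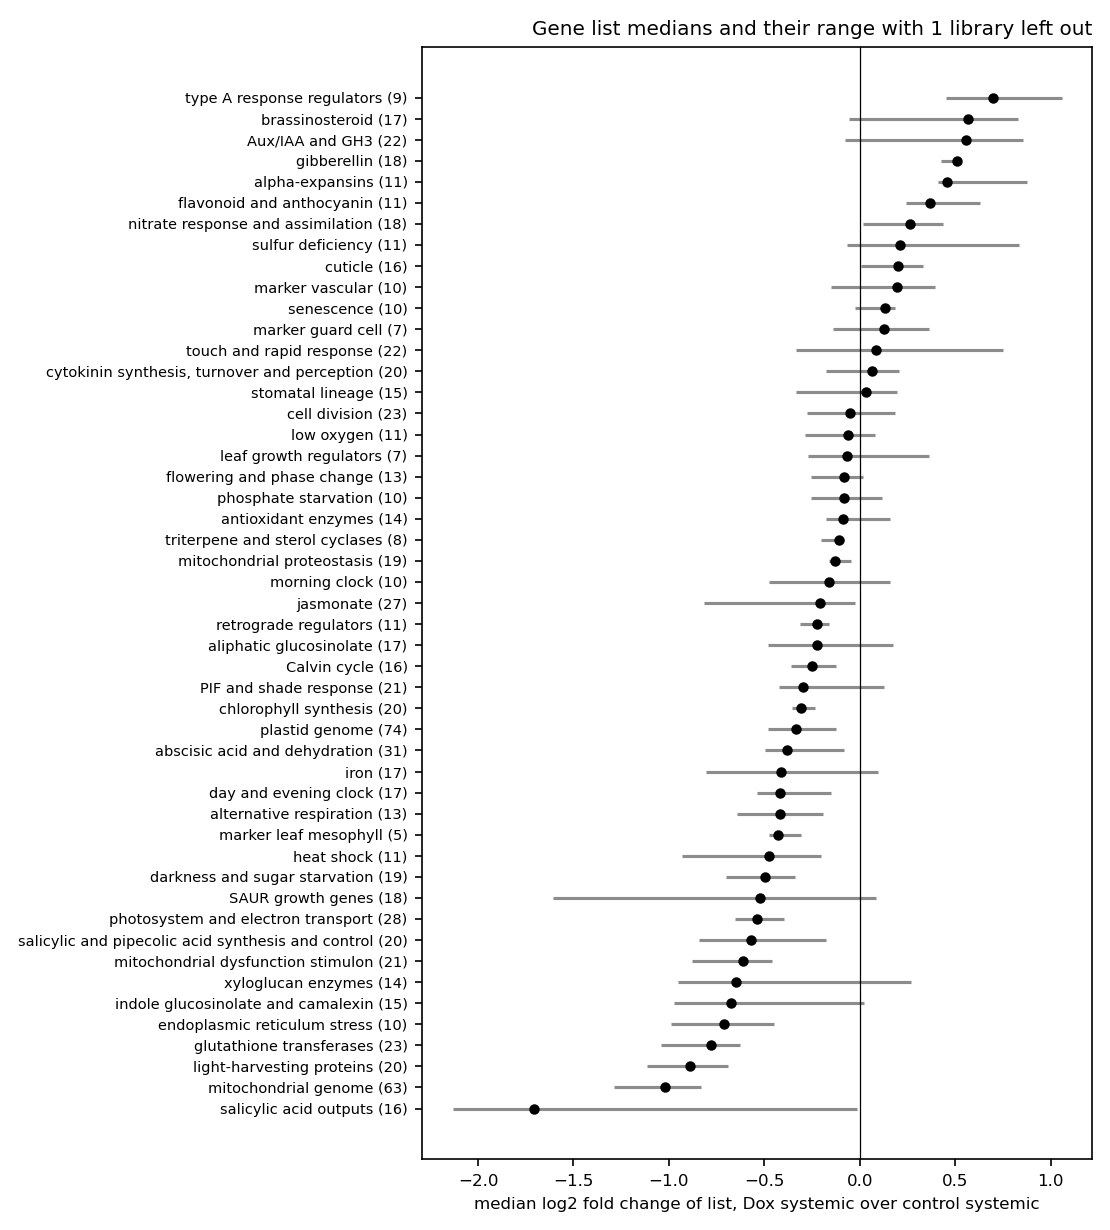
Median log2 fold change, Dox systemic over control systemic leaves, of each gene list with at least 5 tested members (black points; members tested in brackets), with the lowest and highest median when 1 of the 6 systemic libraries is left out (grey bars). Light-harvesting genes lie at -0.89 and type A response regulators at 0.70, while the salicylic acid output list reaches from -2.13 to -0.01.

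Light-harvesting proteins bind the chlorophyll that feeds both photosystems, LHCB members at photosystem II and LHCA members at photosystem I. Of 21 listed members 20 passed the filter on low counts, and these 20 had negative log2 fold changes, but LHCA5 was at 0.03 with total counts alone as the scaling and at 0.01 without Dox library 1, and LHCB1.4 was at 0.52 without control library 1. Their median was -0.89, where the median over all genes tested was -0.001. At an unadjusted p under 0.05 there were 12 lower and 0 higher, 12 had no overlap between the groups, and DESeq2 called 5. Because these are whole leaves, fewer cells of a type and less RNA per cell cannot be told apart. The 5 mesophyll markers, some of them members of this list or of the Calvin cycle list, were all negative, with a median of -0.43 and summed levels of 21100 to 24800 CPM with Dox against 26800 to 32200 CPM in controls, and their part in these values was not tested. The LHCB2 proteins, outer antenna subunits that are phosphorylated when the antenna moves between photosystems, gave the clearest case. LHCB2.1 had 12.7, 10.8 and 8.23 CPM in Dox systemic leaves, against 69.7, 57.6 and 46.0 CPM in control systemic leaves (-2.45, SE 0.69). LHCB2.2 stood at 20.4, 13.9 and 9.34 CPM with Dox and 102, 72.9 and 50.1 CPM in controls (-2.37, SE 0.67). LHCB2.3 stood at 9.46, 15.5 and 16.2 CPM with Dox and 64.0, 46.0 and 29.4 CPM in controls (-1.76, SE 0.38). No library of one group reached the range of the other for any of the 3. The coding sequences of LHCB2.1 and LHCB2.2 are 96.6% identical (27 of 798 positions differ), so the counting may have divided reads between them, while LHCB2.3 is 85.5% and 84.4% identical to them.

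The LHCB1 genes encode the most abundant antenna protein. LHCB1.1 had 24.8, 21.04 and 19.03 CPM in Dox systemic leaves and 489, 269 and 58.4 CPM in control systemic leaves (-3.65, SE 0.93), so the control libraries span a wide range above a narrow Dox range. LHCB1.2 stood at 807, 323 and 242 CPM with Dox against 2103, 1139 and 440 CPM in controls (-1.43, SE 0.67), and LHCB1.3 at 8497, 6142 and 4294 CPM against 12920, 7659 and 4939 CPM (-0.43, SE 0.45). Both overlap between the groups. The coding sequences of these 3 genes are 95.6% to 96.4% identical, so their separate values are uncertain. LHCB1.4, 86.8% to 88.2% identical to them, had 1074, 324 and 224 CPM with Dox and 1799, 545 and 204 CPM in controls (-0.65, SE 0.88) and turned to 0.52 without control systemic library 1.

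Among the linker antennae of photosystem II, LHCB6 stood at 398, 530 and 359 CPM with Dox and 1221, 915 and 851 CPM in controls (-1.22, SE 0.30). LHCB4.2 was at -1.08 (SE 0.36), LHCB5 at -0.76 (SE 0.25) and LHCB4.1 at -0.52 (SE 0.25), all without overlap, whereas LHCB4.3 (-0.71, SE 0.56) overlapped. The photosystem I antenna gene LHCA4 had 981, 915 and 752 CPM in Dox systemic leaves, against 2677, 2063 and 1612 CPM in control systemic leaves (-1.26, SE 0.36). LHCA3 and LHCA1 were each at -0.89 (SE 0.30 and 0.34), LHCA6 at -0.57 (SE 0.25) and LHCA2 at -0.42 (SE 0.31). The relatives LHCB7 (-0.14, SE 0.23) and LHCA5 (-0.07, SE 0.18) showed the smallest differences of the 20. In local leaves the list had a median of -0.30 with 15 of 20 members negative.

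**Figure D2:**
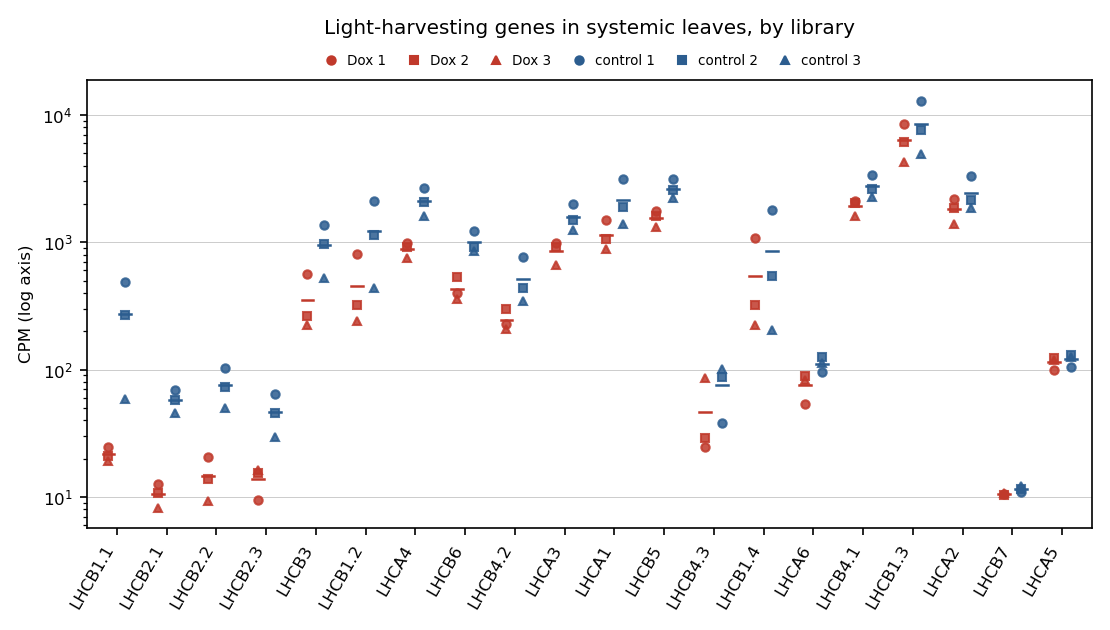
CPM (log axis) of the 20 light-harvesting genes in 3 Dox systemic (red, left) and 3 control systemic libraries (blue, right), with symbols marking library number and short bars the means, ordered by log2 fold change. The LHCB2 genes and LHCB1.1 at the left have no overlap between the groups, and LHCB7 and LHCA5 lie close together.

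The promoters of 3 of these genes are shown because light-regulated plant promoters are known to carry the G-box (CACGTG) and the I-box (GATAAG). The sequences are the bases just before the annotated gene start in RefSeq TAIR10.1, 5′ to 3′ on the gene's strand and cut where another annotated gene begins, and capitals mark the motif. LHCB2.1 (chr2:1824481-1824730, minus strand) has an I-box, LHCB2.3 (chr3:10255656-10255905, plus strand) a G-box, and LHCB6 (chr1:5447881-5448059, minus strand) a G-box and an I-box.
LHCB2.1: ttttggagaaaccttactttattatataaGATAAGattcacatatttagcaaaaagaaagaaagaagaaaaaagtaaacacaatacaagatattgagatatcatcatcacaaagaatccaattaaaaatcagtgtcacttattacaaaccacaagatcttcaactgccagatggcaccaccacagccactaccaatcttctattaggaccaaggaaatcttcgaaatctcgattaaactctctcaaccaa
LHCB2.3: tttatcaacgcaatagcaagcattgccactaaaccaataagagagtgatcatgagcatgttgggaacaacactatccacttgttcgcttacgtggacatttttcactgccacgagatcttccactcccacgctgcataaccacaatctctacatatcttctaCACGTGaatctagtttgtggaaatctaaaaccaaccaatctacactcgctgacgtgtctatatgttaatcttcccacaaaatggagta
LHCB6: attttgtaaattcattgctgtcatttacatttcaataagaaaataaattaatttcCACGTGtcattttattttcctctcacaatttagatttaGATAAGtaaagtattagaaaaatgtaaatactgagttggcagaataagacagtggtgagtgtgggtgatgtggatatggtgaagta
Counting both strands of the 250 bases before the gene start, 5 of the 20 light-harvesting promoters (25%) hold a G-box, against 7.36% of 18691 promoters of tested genes, and 4 of 20 (20%) hold an I-box, against 12.4%. The G-box set is LHCB2.3, LHCB4.1, LHCB6, LHCB7 and LHCA4, which runs from -1.76 to -0.14 in log2 fold change. A match is only a run of letters and says nothing about what binds there. Both motifs were picked as known in light-regulated promoters, so their frequency in this list is no independent finding.

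Other parts of the photosynthetic apparatus were lower by smaller amounts. Of 28 nuclear genes for photosystem and electron transport subunits 27 were negative, with a median of -0.54, 14 at an unadjusted p under 0.05 and 21 without overlap. PSAD-2, the ferredoxin-docking subunit of photosystem I, had 103, 153 and 83.0 CPM in Dox systemic leaves, against 340, 222 and 221 CPM in control systemic leaves (-1.21, SE 0.40). PETE1, a plastocyanin that carries electrons to photosystem I, stood at 104, 136 and 109 CPM with Dox and 248, 187 and 176 CPM in controls (-0.80, SE 0.21). PSAO was at -0.79 (SE 0.29), the oxygen-evolving subunit PSBP-1 at -0.71 (SE 0.24) and PSBS, needed for energy-dependent quenching, at -0.65 (SE 0.30), all 3 without overlap. In chlorophyll synthesis 19 of 20 genes were negative (median -0.31), 9 at an unadjusted p under 0.05 and 12 without overlap. CHLH, the large subunit of magnesium chelatase, stood at 198, 277 and 239 CPM with Dox, against 434, 467 and 493 CPM in controls (-0.96, SE 0.29). PORC, a protochlorophyllide oxidoreductase, had 65.4, 104 and 87.6 CPM with Dox and 153, 160 and 155 CPM in controls (-0.86, SE 0.25). CAO (AT1G44446), which makes chlorophyll b, was at -1.14 (SE 0.46), CRD1 at -0.78 (SE 0.30) and PCB2, a divinyl reductase, at -0.58 (SE 0.17). DESeq2 called no gene of these 2 lists.

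Calvin cycle genes differed less. Their median was -0.25 (-0.13 without Dox library 1) with 15 of 16 negative, 1 at an unadjusted p under 0.05 and 7 without overlap. HCEF1, a plastid fructose bisphosphatase, had 330, 476 and 376 CPM in Dox systemic and 504, 561 and 558 CPM in control systemic leaves (-0.46, SE 0.20), and the aldolase FBA1 was at -0.63 (SE 0.40). In local leaves all 16 members were positive, with a median of 0.47. The interaction of leaf position and Dox met an adjusted p of 0.05 for 0 of 19403 genes (0%) in edgeR, with 1007 (5.19%) at an unadjusted p under 0.05.

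Cytokinin is a growth hormone made from adenine, perceived by histidine kinase receptors and relayed to type B response regulators, which switch on the type A regulators that feed back on the pathway. Of 10 type A regulators 9 passed the filter and 8 were positive, with a median of 0.70 (0.45 without control library 1 and 1.06 without control library 3), 2 at an unadjusted p under 0.05 and 4 without overlap. ARR16 had 45.5, 32.2 and 56.4 CPM in Dox systemic leaves, against 3.38, 10.4 and 7.86 CPM in control systemic leaves (2.63, SE 0.50). ARR15 stood at 1.58, 6.83 and 7.12 CPM with Dox and 0.104, 1.44 and 0.879 CPM in controls (2.66, SE 0.95), and ARR5 at 34.3, 33.9 and 44.9 CPM against 6.51, 4.74 and 30.4 CPM (1.44, SE 0.76). The groups do not overlap for these 3, although control library 3 comes close for ARR5. ARR8 was at 0.68 (SE 0.42, no overlap), ARR6 at 0.78 (SE 0.63), ARR7 at 0.70 (SE 0.57), ARR4 at 0.39 (SE 0.23) and ARR9 at 0.24 (SE 0.45), and ARR17, with few reads, at -2.44 (SE 1.45). Local leaves had all 9 positive, with a median of 1.17.

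Genes upstream in the same pathway were mixed, with 12 of 20 positive and a median of 0.07, which ran from -0.18 to 0.20 with 1 library left out. The type B regulator ARR10 had 13.6, 10.4 and 10.03 CPM with Dox and 6.30, 6.44 and 7.81 CPM in controls (0.73, SE 0.19; DESeq2 adjusted p = 0.0478). The receptor AHK4 stood at 15.1, 8.46 and 10.8 CPM with Dox against 1.88, 5.70 and 6.36 CPM in controls (1.3, SE 0.48), and IPT3, an enzyme of cytokinin synthesis, at 10.99, 8.41 and 6.61 CPM against 1.35, 5.18 and 2.999 CPM (1.44, SE 0.66). All Dox libraries of the 3 genes were above all control libraries. CKX5, which degrades cytokinin, was lower, at -0.71 (SE 0.29).

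**Figure D3:**
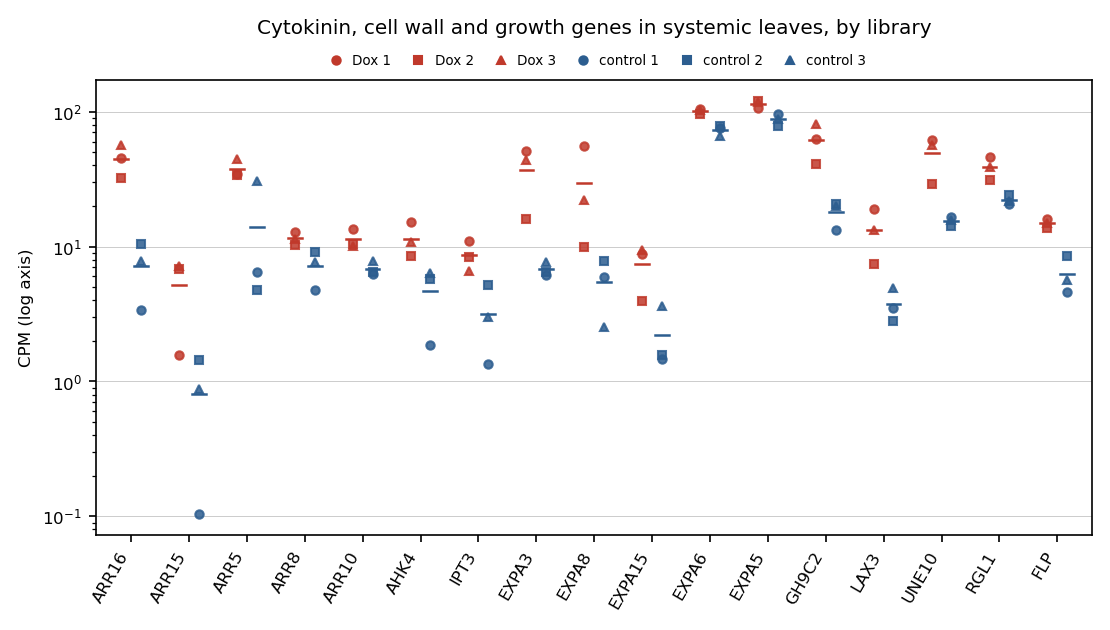
CPM (log axis) of cytokinin, cell wall and growth genes in 3 Dox systemic (red, left) and 3 control systemic libraries (blue, right), with symbols marking library number and short bars the means. Only genes higher without overlap are shown, a pattern found for 7.96% of all genes tested, and the gap is widest for ARR16. Genes of the same lists that overlap, such as ARR6 and EXPA11, are left out.

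Alpha-expansins loosen the cell wall and let cells enlarge. Of 12 listed members 11 passed the filter and had positive log2 fold changes, with a median of 0.46 (0.88 without control library 2). Among them 5 were at an unadjusted p under 0.05, 5 were without overlap and 3 were called by DESeq2. In local leaves 9 of the 11 were positive, with a similar median of 0.43. EXPA3 had 51.1, 15.9 and 43.6 CPM in Dox systemic leaves and 6.14, 6.49 and 7.70 CPM in control systemic leaves (2.44, SE 0.50). EXPA8 stood at 55.9, 9.96 and 22.3 CPM with Dox against 5.99, 7.75 and 2.53 CPM in controls (2.43, SE 0.71), and EXPA15 at 8.83, 3.93 and 9.34 CPM against 1.46, 1.57 and 3.62 CPM (1.73, SE 0.46). Dox library 2 was the lowest of its group for each of them. EXPA6 and EXPA5 differed less but with little spread: EXPA6 had 105, 95.3 and 104 CPM with Dox and 75.9, 78.4 and 66.4 CPM in controls (0.46, SE 0.17), and EXPA5 had 106, 120 and 118 CPM with Dox and 95.8, 78.5 and 88.1 CPM in controls (0.39, SE 0.17). The other 6, EXPA11, EXPA16, EXPA4, EXPA10, EXPA1 and EXPA9, ran from 0.12 to 0.91 and overlapped, and EXPA1 turned to -0.15 without control library 3 and EXPA9 to -0.03 without Dox library 3.

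Other wall and growth genes did not all go the same way. GH9C2, an endoglucanase, had 62.6, 40.7 and 80.4 CPM in Dox systemic leaves, against 13.2, 20.6 and 20.11 CPM in control systemic leaves (1.77, SE 0.34; DESeq2 adjusted p = 0.00164). LAX3, an auxin importer of the plasma membrane, stood at 18.9, 7.43 and 13.3 CPM with Dox and 3.49, 2.79 and 4.91 CPM in controls (1.82, SE 0.36). XTH9, a xyloglucan-remodelling enzyme, was lower, at 23.6, 19.5 and 53.5 CPM with Dox against 94.5, 78.9 and 145 CPM in controls (-1.72, SE 0.44; DESeq2 adjusted p = 0.0337), and its list of 14 had 5 positive members. Cell division genes had 10 of 23 positive, a median of -0.05 (-0.28 to 0.19 with 1 library left out) and 0 at an unadjusted p under 0.05 in either direction. FLP, a MYB factor that ends division in the stomatal lineage, had 15.9, 13.8 and 14.98 CPM with Dox and 4.58, 8.49 and 5.69 CPM in controls (1.25, SE 0.33). It was the 1 member of 15 stomatal lineage genes higher without overlap, a share near the 7.96% of all genes tested. The median of that list was 0.03 (-0.33 to 0.20 with 1 library left out).

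Gibberellin genes had 14 of 18 positive, a median of 0.51 and 5 higher without overlap. Among them were the DELLA repressors RGL1, at 45.7, 31.1 and 39.2 CPM in Dox systemic and 20.8, 24.0 and 21.6 CPM in control systemic leaves (0.80, SE 0.19), and RGL2, at 4.33, 2.43 and 2.304 CPM with Dox and 1.93, 1.65 and 1.499 CPM in controls (0.83, SE 0.36). The gibberellin median stayed between 0.43 and 0.52 with any library left out. Auxin and brassinosteroid lists did not hold in that way. The Aux/IAA and GH3 list had 16 of 22 positive and a median of 0.56, which was -0.08 without Dox library 1, and the brassinosteroid list had 15 of 17 positive and a median of 0.57, which was -0.06 without it. GH3.6, which conjugates auxin to amino acids, stood at 18.4, 2.62 and 3.92 CPM with Dox against 1.88, 0.958 and 1.91 CPM in controls (2.39, SE 0.75), and IAA19 at 172, 37.6 and 66.2 CPM against 58.4, 40.8 and 34.6 CPM (1.04, SE 0.47). BR6OX2, which makes brassinolide, stood at 59.96, 11.2 and 6.36 CPM with Dox and 9.998, 15.8 and 3.46 CPM in controls (1.401, SE 0.98) and turned to -0.16 without Dox library 1. Dox library 1 is the high value in all 3 cases.

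**Figure D4:**
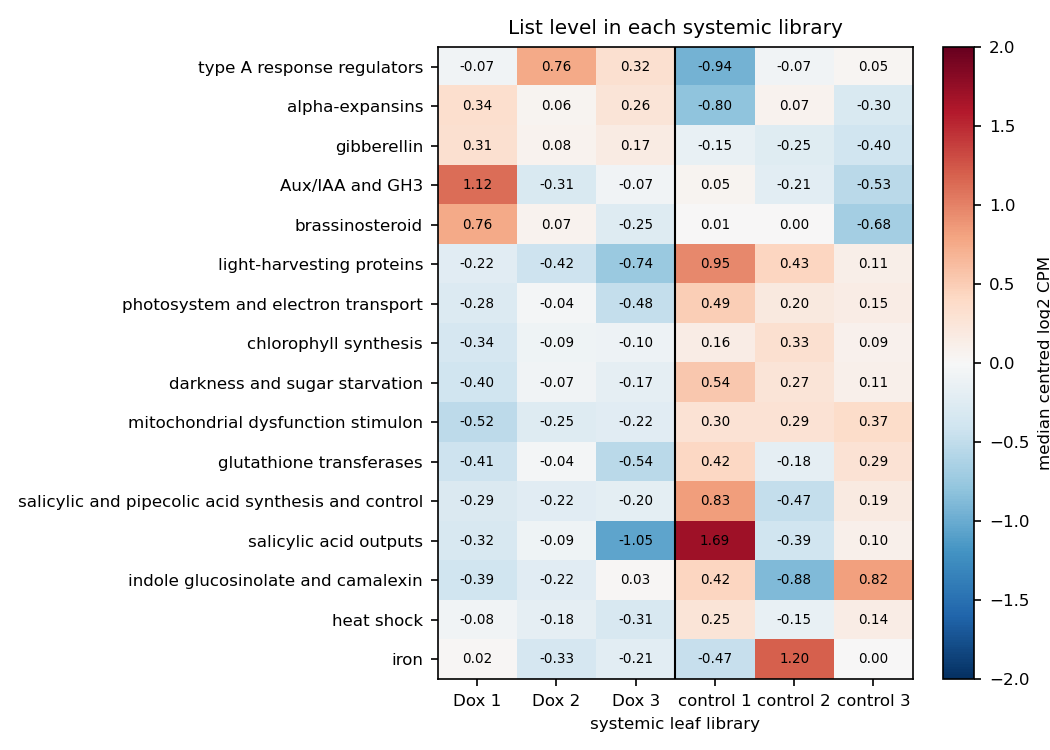
Median log2 CPM of the members of 16 gene lists in each systemic library, each gene centred on its mean over the 6 systemic libraries. The 3 Dox libraries are left of the line and the 3 control libraries right of it (red, above that mean, and blue, below it). Light-harvesting genes run from -0.74 to -0.22 with Dox and from 0.11 to 0.95 in controls, salicylic acid outputs reach 1.69 in control library 1, iron genes 1.2 in control library 2, and Aux/IAA genes 1.12 in Dox library 1.

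The mitochondrial dysfunction stimulon comprises nuclear genes that respond when mitochondria are impaired, and 17 of its 21 tested members (22 listed) had negative log2 fold changes in Dox systemic leaves. The median was -0.61, 7 were at an unadjusted p under 0.05 and 10 lower without overlap. A set of 3 efflux transporter genes of the MATE family with similar locus numbers on chromosome 2 were among them. DTX1 had 0.180, 0.234 and 0.384 CPM with Dox and 1.88, 3.48 and 1.81 CPM in controls (-3.13, SE 0.84). AT2G04050 stood at 0.451, 1.12 and 0.853 CPM with Dox against 3.38, 11.7 and 5.53 CPM in controls (-3.08, SE 1.05), and AT2G04070 at 0.270, 0.608 and 0.213 CPM against 2.24, 2.92 and 1.81 CPM (-2.66, SE 0.51; DESeq2 adjusted p = 0.00102). The groups are separate for all 3, whose coding sequences are 87.3% to 90.3% identical, so reads may be divided between copies. CYP81D8, a cytochrome P450, stood at 6.62, 6.31 and 5.08 CPM with Dox and 20.2, 10.7 and 36.0 CPM in controls (-1.89, SE 0.63).

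Alternative respiration bypasses the proton-pumping complexes through alternative oxidases and external or internal NAD(P)H dehydrogenases. The list, which also holds uncoupling proteins and dicarboxylate carriers of the inner membrane, had 10 of 13 negative and a median of -0.42, which was -0.64 without control library 2 and -0.20 without control library 3. NDB2, an external NADH dehydrogenase, had 6.04, 7.01 and 4.82 CPM in Dox systemic and 19.1, 10.8 and 12.9 CPM in control systemic leaves (-1.26, SE 0.35). AOX1D, an alternative oxidase, rests on few reads, with 0.135, 0.0935 and 0.0427 CPM with Dox and 9.32, 0.827 and 0.465 CPM in controls (-5.20, SE 1.35). AOX1A, given for its role as the main inducible alternative oxidase, overlapped, at 24.0, 34.9 and 33.5 CPM with Dox and 43.2, 27.2 and 52.9 CPM in controls (-0.42, SE 0.36). The retrograde regulators, mostly transcription factors, had 7 of 11 negative and a median of -0.22. ANAC017 was at -0.22 (SE 0.15) and ANAC013 at -0.35 (SE 0.33), both overlapping. WRKY63, a WRKY factor, had 0.0451, 0.0935 and 0 CPM with Dox and 3.02, 0.261 and 0.465 CPM in controls (-4.60, SE 1.65), on few reads. It was the 1 member of 11 lower without overlap, a share near the 8.41% of all genes tested. In local leaves the stimulon had 15 of 21 members positive and a median of 0.18.

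The mitochondrial dysfunction motif, a 13-base element first described in promoters of stimulon genes, was searched on both strands of the 250 bases before the gene start. It is present in 4 of 21 stimulon promoters and in 3 of 13 alternative respiration promoters (NDA1, NDB2 and NDB3), against 0.877% of 18691 promoters. Of the stimulon genes, AT2G04050 has 2 matches, 215 and 156 bases before the start, and AT2G04070 and DTX1 have none in this window. The promoters of AT2G04050 (chr2:1339469-1339718, minus strand) and NDB2 (chr4:2572209-2572426, plus strand) are printed for their matches, in capitals, from the same source as above.
AT2G04050: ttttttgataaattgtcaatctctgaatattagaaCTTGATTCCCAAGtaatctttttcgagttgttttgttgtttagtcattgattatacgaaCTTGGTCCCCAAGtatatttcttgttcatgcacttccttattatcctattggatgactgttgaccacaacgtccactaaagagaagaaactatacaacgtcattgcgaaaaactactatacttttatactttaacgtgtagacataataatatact
NDB2: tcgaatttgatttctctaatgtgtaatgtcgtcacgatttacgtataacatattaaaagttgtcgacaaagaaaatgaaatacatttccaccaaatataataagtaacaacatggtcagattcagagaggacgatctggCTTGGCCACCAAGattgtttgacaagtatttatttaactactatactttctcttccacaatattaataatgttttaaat
The motif was itself described from genes of this kind, so its frequency in the list is no independent finding.

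Glutathione transferases, which detoxify reactive compounds, had 18 of 23 members negative and a median of -0.78, with 6 at an unadjusted p under 0.05 and 6 lower without overlap. GSTU24 stood at 0.586, 0.748 and 0.768 CPM with Dox, against 3.70, 4.05 and 1.76 CPM in controls (-2.17, SE 0.65), and GSTU20 at 24.8, 27.9 and 25.4 CPM against 38.5, 61.5 and 87.4 CPM (-1.26, SE 0.53). GSTU4 was at 2.48, 2.197 and 0.128 CPM with Dox and 35.4, 3.09 and 4.29 CPM in controls (-3.15, SE 1.15), and at -1.22 without control library 1. AT2G29500, annotated as an HSP20-like chaperone, had 0.135, 0.374 and 0.384 CPM in Dox systemic and 10.2, 4.13 and 2.22 CPM in control systemic leaves (-4.18, SE 0.93; DESeq2 adjusted p = 0.00157). Every control library was above every Dox library for this gene, on few reads.

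Clock genes lower without overlap numbered 3 of 10 in the morning list and 3 of 17 in the day and evening list, against 8.41% of all genes tested. The morning list also had 2 higher without overlap, against 7.96%. It was even, with 5 of 10 negative and a median of -0.16 that ran from -0.48 to 0.16 with 1 library left out. LNK1 and LNK2 are coactivators of the morning complex that turn on afternoon genes. LNK1 had 0.180, 0.701 and 0.0853 CPM with Dox and 1.35, 4.40 and 7.24 CPM in controls (-3.74, SE 1.22), and LNK2 had 10.6, 12.4 and 9.13 CPM with Dox and 31.2, 24.1 and 26.5 CPM in controls (-1.35, SE 0.30). PRR7, a repressor of the morning genes, stood at 18.1, 8.60 and 5.33 CPM with Dox against 65.3, 43.0 and 52.1 CPM in controls (-2.32, SE 0.64). These 3 were the ones DESeq2 called in the morning list, and each is separate from its controls. LHY, a morning factor that PRR7 represses, was higher, at 1.76, 0.468 and 1.15 CPM with Dox and 0, 0.392 and 0.155 CPM in controls (2.54, SE 0.82), on few reads. Of 17 day and evening genes 13 were negative, with a median of -0.42 (-0.15 without Dox library 3). GI stood at 8.83, 3.97 and 1.02 CPM with Dox and 24.3, 12.7 and 8.996 CPM in controls (-1.74, SE 0.87), so its groups nearly touch. LUX stood at 33.4, 28.0 and 15.4 CPM against 62.6, 39.2 and 47.7 CPM (-0.96, SE 0.41) and PRR5 at -1.44 (SE 0.59). TOC1, which represses morning genes at dusk, was at -0.52 (SE 0.28). The hour of sampling is not given for either group, and a difference in hour and a difference in treatment cannot be told apart here.

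The evening element (AAAATATCT), a binding site of morning clock factors, was sought on both strands of the same 250 bases. It was found in 6 of 17 day and evening promoters (35.3%), PRR5, TOC1, LUX, BOA, FKF1 and COL2, against 2.53% of all 18691. Because clock factors bind this element and the list holds clock genes, the frequency of the element there is no independent finding. LUX (chr3:17182792-17183041, plus strand) has it 53 bases before the start and PRR5 (chr5:8358547-8358796, minus strand) 187 bases before, on the opposite strand; both are printed to show the element, in capitals, in genes with negative log2 fold changes; PRR5 overlaps between the groups.
LUX: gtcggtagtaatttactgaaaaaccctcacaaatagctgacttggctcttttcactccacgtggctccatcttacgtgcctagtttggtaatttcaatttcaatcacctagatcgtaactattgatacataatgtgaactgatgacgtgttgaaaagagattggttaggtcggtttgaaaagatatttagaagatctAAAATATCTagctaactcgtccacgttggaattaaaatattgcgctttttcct
PRR5: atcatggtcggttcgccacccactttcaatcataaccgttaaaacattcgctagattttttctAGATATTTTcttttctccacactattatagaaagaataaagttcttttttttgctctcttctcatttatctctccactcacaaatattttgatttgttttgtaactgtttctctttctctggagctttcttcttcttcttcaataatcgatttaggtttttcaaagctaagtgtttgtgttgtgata

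Genes induced by darkness and sugar shortage had 17 of 19 members negative and a median of -0.50, with 5 at an unadjusted p under 0.05 and 5 without overlap. DIN10, a raffinose synthase family gene, had 427, 1285 and 590 CPM in Dox systemic leaves, against 1969, 2898 and 2246 CPM in control systemic leaves (-1.63, SE 0.36; DESeq2 adjusted p = 0.00411). ASN1, the asparagine synthetase induced in the dark, stood at 31.8, 96.1 and 100 CPM with Dox and 285, 184 and 181 CPM in controls (-1.51, SE 0.52). The groups are separate for both genes, and Dox library 1 is the lowest for each. TPS8, a trehalose phosphate synthase homologue, was at -0.78 (SE 0.29), the transcription factor gene BZIP1 at -0.89 (SE 0.25) and DIN9 at -0.73 (SE 0.28). A separate list of phytochrome-interacting factors and shade response was mixed, with 9 of 21 positive. Its median was -0.295, from -0.424 to 0.126 with 1 library left out. It had 2 members higher and 2 lower without overlap, shares near the 7.96% and 8.41% of all genes tested. BBX24, a B-box factor of light signalling, was lower, at 11.5, 6.69 and 5.97 CPM with Dox and 26.6, 15.8 and 19.3 CPM in controls (-1.35, SE 0.45). HY5, a central light-signalling factor, was higher, at 3.65, 3.6 and 5.55 CPM against 2.34, 2.70 and 1.71 CPM (0.92, SE 0.34).

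**Figure D5:**
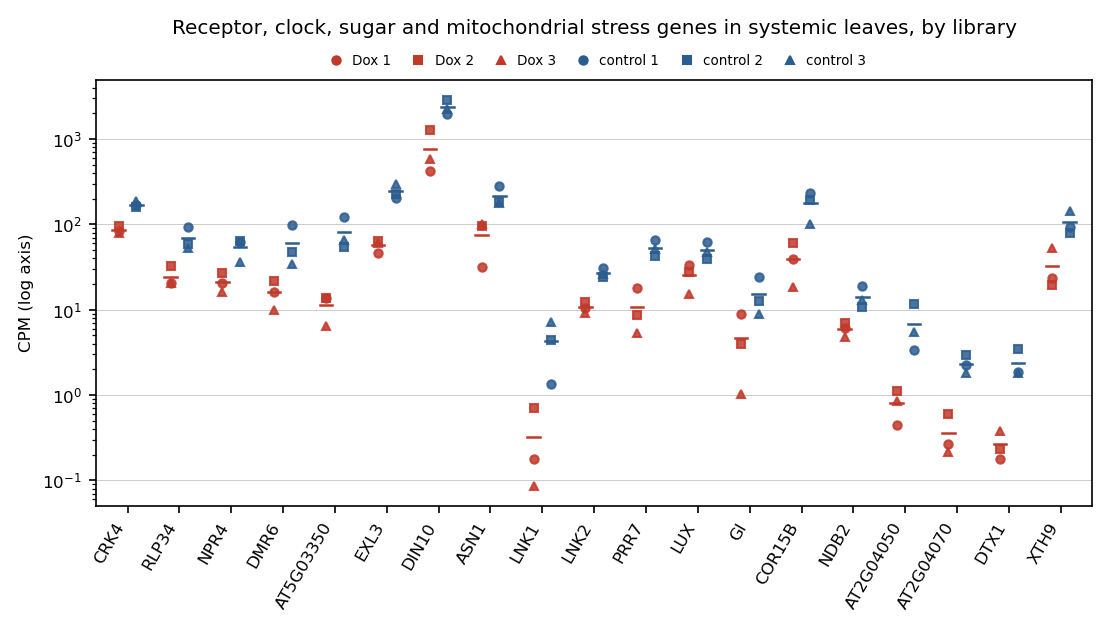
CPM (log axis) of receptor, immune, sugar, clock, cold and mitochondrial stress genes in 3 Dox systemic (red, left) and 3 control systemic libraries (blue, right), with symbols marking library number and short bars the means. Only genes with all 3 Dox libraries below all 3 control libraries are shown, a pattern found for 8.41% of all genes tested. Genes of the same lists that overlap, such as AOX1A and PRR5, are left out.

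The median of salicylic acid outputs depended on control library 1. The salicylic acid output list had 15 of 16 negative and a median of -1.71, with 7 at an unadjusted p under 0.05 and 4 lower without overlap, and its median was -0.01 without control library 1. AIG1, an immune-induced GTP-binding protein, shows the pattern, at 1.53, 1.68 and 0.0853 CPM with Dox and 48.0, 0.740 and 0.620 CPM in controls, and it turned to 0.67 without that library. In the list of salicylic and pipecolic acid synthesis and control 16 of 20 genes were negative, with a median of -0.57 (-0.18 without control library 1). NPR4 and DMR6 were its 2 members lower without overlap, a share near the 8.41% of all genes tested. NPR4, a salicylic acid receptor that represses defence genes, had 20.4, 27.1 and 16.1 CPM with Dox and 62.6, 64.5 and 36.5 CPM in controls (-1.36, SE 0.34; DESeq2 adjusted p = 0.03665). DMR6, which hydroxylates salicylic acid, stood at 16.3, 21.9 and 9.90 CPM with Dox and 98.0, 47.2 and 34.5 CPM in controls (-1.90, SE 0.54). Among the outputs, AT5G03350, annotated as a legume lectin family protein, stood at 13.8, 13.7 and 6.53 CPM against 124, 54.4 and 65.0 CPM (-2.84, SE 0.82). GRXS13, a glutaredoxin, was at -2.90 (SE 0.79) and remained at -1.65 without control library 1.

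Single jasmonate and cold-regulated genes stood apart between the groups, in the jasmonate list at about the share seen over all genes tested. LOX2, the lipoxygenase that starts jasmonate synthesis, had 124, 411 and 146 CPM in Dox systemic leaves, against 748, 690 and 857 CPM in control systemic leaves (-1.75, SE 0.70), and AOC2, an allene oxide cyclase, had 45.4, 98.1 and 96.1 CPM with Dox against 231, 116 and 227 CPM in controls (-1.26, SE 0.48). The jasmonate list as a whole had 17 of 27 negative. LOX2 and AOC2 were its 2 members lower without overlap, a share near the 8.41% of all genes tested. Its median was -0.21 and ran from -0.81 to -0.03 with 1 library left out, lowest without Dox library 3 and highest without control library 3. The abscisic acid and dehydration list had 21 of 31 negative and a median of -0.38 (-0.08 without control library 3), with 10 lower and 4 higher without overlap. COR15B, a cold-induced chloroplast protein, stood at 39.1, 59.8 and 18.6 CPM with Dox and 235, 192 and 102 CPM in controls (-2.17, SE 0.60; DESeq2 adjusted p = 0.0347). RD20, a caleosin induced by drought, was at -1.32 (SE 0.57). CBF1, the factor that induces COR genes in the cold, was on the other side, at 15.7, 22.5 and 24.8 CPM with Dox and 6.51, 2.39 and 11.8 CPM in controls (1.61, SE 0.44). Neither COR15B nor CBF1 overlapped between the groups.

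Smaller sets completed the comparison. ERF5, an ethylene response factor of rapid stress responses, had 150, 130 and 144 CPM in Dox systemic leaves and 61.1, 38.4 and 76.5 CPM in control systemic leaves (1.27, SE 0.35). Its list of 22 touch and rapid response genes was even, with 12 positive. ERF5 was the 1 member of that list higher without overlap, a share not above the 7.96% of all genes tested. Chalcone isomerase (CHI, AT3G55120), an enzyme of flavonoid synthesis, stood at 9.19, 9.72 and 9.60 CPM with Dox and 4.79, 4.35 and 2.69 CPM in controls (1.27, SE 0.52), and the flavonol glycosyltransferase UGT78D1 was at 0.87 (SE 0.35). Of 21 listed flavonoid and anthocyanin genes 11 passed the filter on low counts, and 8 of these were positive. DFR and LDOX were among those with too few reads to be tested. NRT1.1, a nitrate transporter and sensor, had 171, 205 and 173 CPM with Dox and 86.9, 147 and 93.5 CPM in controls (0.75, SE 0.50), and SAPX, a stromal ascorbate peroxidase, 54.1, 43.5 and 44.3 CPM against 37.9, 14.5 and 23.47 CPM (0.90, SE 0.35). FLC, a flowering repressor, was lower, at 3.47, 4.82 and 4.31 CPM against 9.95, 6.70 and 6.57 CPM (-0.88, SE 0.27). It was the 1 member of 13 flowering and phase change genes lower without overlap, a share near the 8.41% of all genes tested.

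Iron genes were led by control library 2. BHLH100 had 7.97, 5.80 and 6.02 CPM with Dox and 5.57, 58.8 and 10.13 CPM in controls (-1.92, SE 0.78), and BHLH38 had 3.199, 4.301 and 4.57 CPM with Dox and 4.17, 31.1 and 6.83 CPM in controls (-1.80, SE 0.75). These iron-deficiency regulators stood at -0.25 and -0.45 without that library, and the list median was 0.10 without it, against -0.41 with all libraries. FER4, a ferritin that stores iron, was at 0.86 (SE 0.40) and PYE, a regulator of iron homeostasis, at 0.80 (SE 0.23), both higher with no overlap.

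Some markers of other tissues differed between libraries. Of the root markers, PYK10 had 6.80, 23.6 and 7.68 CPM with Dox and 77.4, 1.65 and 55.7 CPM in controls, which overlap. The flower organ gene SEP3 had 11.2, 2.06 and 13.3 CPM in Dox systemic leaves and 1.93, 2.00 and 2.22 CPM in control systemic leaves (2.11, SE 0.83). The 3 flower markers tested were all positive, their summed level was 4.77 to 23.1 CPM with Dox and 2.76 to 5.95 CPM in controls, and the 4 untested ones summed to 1 to 13 reads with Dox and 0 to 5 reads in controls. Dox libraries 1 and 3, the high ones for SEP3, were also above Dox library 2 for EXPA3, EXPA8, EXPA15, LAX3, UNE10, ARR16, GH9C2, SWEET1, PDCB5, AT5G66310 and LPD1. That order held for 36 of the 51 genes higher without overlap among those picked for naming (70.6%) and for 769 of the 1544 such genes in all (49.8%), and its part in those values was not tested. The 10 vascular markers summed to 264 to 382 CPM with Dox and 189 to 342 CPM in controls, and the 7 guard cell markers to 3100 to 3310 CPM with Dox and 3160 to 3420 CPM in controls. LUP1, a lupeol synthase, followed the same libraries, at 132, 12.5 and 80.7 CPM with Dox and 8.80, 5.05 and 10.96 CPM in controls (3.18, SE 0.80), whereas LUP2 stood at 0.28 (SE 0.17).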

How the data were processed

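RNA was measured by sequencing in 12 libraries of Arabidopsis leaves, 3 count columns in each of 4 samples, and the 6 systemic columns are compared here. What the authors deposited are raw counts of reads per gene. A TruSeq kit served for mRNA purification and a SMARTER kit for library construction, per the labels' protocols. HISAT2 and featureCounts 1.6.3 are named for this series, as are DESeq2, FastQC 0.11.9 and Trimmomatic 0.39, per the submitters' processing notes, which give no order. No genome build, strand setting or handling of multi-mapping reads is named in the sources used here, so reads of near-identical, overlapping or antisense genes may be misassigned. Counts include 149 transcripts outside numbered loci, and RefSeq TAIR10.1, which supplied names and sequences, holds 32548 of the numbered loci and lacks 285.

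Counts were tested with edgeR 4.0.16 in R 4.3.3 (quasi-likelihood, TMM, filterByExpr with a minimum count of 10, 4 group means over 12 libraries, Benjamini-Hochberg adjustment over 19403 genes, threshold 0.05). CPM uses TMM-scaled library sizes. DESeq2 1.42.0, other scalings, no filter, 6 libraries only, each systemic library left out and column number as a block were alternatives. The edgeR step was tested on simulated data. Genes were named by rule: the 15 smallest p-values in each direction at 5 CPM or more without overlap, the 10 highest and 10 lowest log2 fold changes at 10 CPM or more, and up to 4 members with the largest change per list at 1 CPM or more, with a list's defining genes given for their role. Remaining family members and a few others were added after their values were seen. The 50 lists hold 829 loci, 735 of them tested. The members, lists and tests were chosen with earlier results of these data known.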

Additional observations from a re-analysis of the deposited data

Results flagged for a closer look

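For 3 of the genes named, every Dox library lay on one side of the controls in systemic leaves and on the other side in local leaves. Only named genes were searched for this pattern, some of them added after their values were seen. Its share over all genes tested is not given here, so the count of 3 has no background to be read against. RGL2, a DELLA repressor, was higher in systemic leaves and in local leaves stood at 0.595, 0.814 and 0.967 CPM with Dox against 1.67, 2.22 and 1.31 CPM with water, for a systemic minus local difference of 1.95 (SE 0.52) on the log2 scale. LTP2, a lipid transfer protein of the cuticle, stood at 51.6, 24.2 and 32.8 CPM in Dox systemic leaves against 21.6, 10.6 and 17.58 CPM in control systemic leaves, and in local leaves at 19.3, 8.52 and 17 CPM with Dox against 24.6, 20.09 and 20.35 CPM with water, with a difference of 1.66 (SE 0.50). RBCS1A, a Rubisco small subunit, was lower in systemic leaves and in local leaves stood at 12310, 10630 and 11180 CPM with Dox against 6571, 7403 and 9801 CPM with water, with a difference of -0.75 (SE 0.40). In edgeR's test of that difference each of the 3 had an adjusted p of 0.832, so none passed.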

How the results depend on the processing

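The count of genes past the adjusted threshold was 0 under each edgeR setting and 121 with DESeq2. At an unadjusted p under 0.05, lower genes numbered 588 with total counts alone, which moved the median of all genes to 0.113, and higher and lower genes ranged from 328 to 840 and from 458 to 977 when 1 library was left out, the fewest without Dox library 1; without Dox library 3 lower genes numbered 585. Lower genes without overlap numbered 970 with total counts alone, against 2297 higher, and the higher ones at p under 0.05 then numbered 969. Whether same-numbered columns are paired or share a batch is not stated and cannot be decided from the values here. Same-numbered deviations of Dox and control systemic libraries correlated at 0.126, -0.088 and 0.462, and differently numbered ones at -0.356 to 0.263. The replicate block gave 0 adjusted calls. At an unadjusted p under 0.05 it gave 1002 higher and 1077 lower, against 740 and 930 without it. LHCA5 was at 0.034 with total counts alone and ranged from -0.173 to 0.014 with 1 library left out. The other reversals came from leaving out 1 library: AIG1 ranged from -4.47 to 0.67, LHCB1.4 from -1.63 to 0.52, EXPA1 from -0.15 to 1.44, EXPA9 from -0.027 to 0.331 and BR6OX2 from -0.16 to 1.94; the cause was not tested. Few reads limit the precision of low genes such as AOX1D, LHY and DTX1.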

Other observations

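Of 11 heat shock genes 8 were negative in systemic leaves, with a median of -0.48 (-0.93 without control library 2 and -0.20 without control library 1), and 10 were positive in local leaves, with a median of 1.58. The local value rests on Dox local library 1. The list stood at 2.93, 0.07 and 0.60 in Dox local libraries and at -0.23, 0.002 and 0.47 in control local libraries. These values are the median log2 CPM after centring each gene on its mean over the 6 systemic libraries. HSP90.1, a cytosolic chaperone, was at -0.90 (SE 0.85) in systemic and 2.43 (SE 0.86) in local leaves. Of 10 genes of endoplasmic reticulum stress, in which misfolded proteins induce folding factors, 8 were negative in systemic leaves (median -0.71, or -0.45 without control library 3) and 10 positive in local leaves (median 0.39). ERDJ3B, a co-chaperone of that compartment, was at -0.98 (SE 0.43) in systemic leaves. The systemic minus local difference had an adjusted p of 0.832 in edgeR for HSP90.1 and for ERDJ3B, and the differences in list medians were not tested.

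Of 152 genes of the mitochondrial genome 63 passed the filter on low counts, and 62 of these were negative in systemic leaves. Their median was -1.02, with 22 at an unadjusted p under 0.05 and 16 lower without overlap. DESeq2 called 0 of them in systemic leaves. In local leaves 58 of these transcripts were negative too, with a median of -0.445. Together, transcripts of the mitochondrial genome took 0.0168%, 0.0286% and 0.0242% of counts in Dox systemic libraries. In control systemic libraries they took 0.0456%, 0.0271% and 0.0468%, and the groups overlap. Whether the single transcripts only follow that share of each library was not tested.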
